A study of Mus musculus with 10 samples.

Results

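The mitochondrial ribosomal protein genes are the nuclear genes that encode the protein part of the ribosome inside mitochondria. They were taken as every gene typed as protein-coding in the deposited count table whose symbol begins with Mrpl or Mrps followed by a digit. This gave 78 of the 56980 genes in the table, 49 with a large-subunit symbol (Mrpl) and 29 with a small-subunit symbol (Mrps). All 78 had enough counts to be tested. The data are RNA-seq counts from mouse macrophages of 2 genotypes, with 5 libraries each. In WT the gene Jaml, which encodes the leukocyte adhesion molecule JAML, was intact. The titles of the other group call it a macrophage knockout (written KO here), and its genotype tag reads JAML Knockdown. Both groups had been exposed to lipopolysaccharide (LPS, a bacterial cell-wall component; 100 ng/ml, 8 h), followed by ATP (5 mM, 30 min), so every value describes stimulated cells. Untreated cells were not analysed here. The labels do not say from which tissue the macrophages came, what drove the deletion, or whether animals were pooled, and they do not say that the libraries of a group came from separate animals. The p-values therefore rest on the spread between libraries, part of which may be technical.

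The 5 columns named WT match the labels. The other 5 carry the name SI, for which the labels give no meaning. They were taken as KO by elimination and are called KO 1 to KO 5 by the number in the column name. Every direction below rests on that reading, and Jaml could not check it, because its highest count in any library was 2. Libraries held 19319512 to 22766319 counts. On the second principal component KO 1 and KO 3 lay at -27.6 and -37.6, apart from the other 8 libraries at -4.32 to 16.6. The 8 macrophage markers summed to 23161 to 24630 CPM (counts scaled to a common library size) in WT and 21999 to 24008 in KO (1 called higher, 3 lower), while 3 T cell and 3 B cell markers reached at most 0.151 and 0.267 CPM in any library, with Cd3e at 0 in all. Markers of other cell types were detected too, some of them at different levels in the groups. The 3 neutrophil markers summed to 12.5 to 16.2 CPM in WT and 19.5 to 23.6 in KO (1 called higher, 2 not tested), and the 4 mast cell markers to 6.39 to 11.5 and 3.31 to 4.46 (3 called lower). The 7 fibroblast and mesothelial markers summed to 546 to 608 CPM in WT and 584 to 750 in KO (3 called higher, 1 lower). Whether other cells or the macrophages themselves made these transcripts was not tested, nor was the part of such cells in the values below. In bulk RNA, fewer cells of a type and less RNA per cell cannot be told apart.

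As background, the mitochondrial ribosome makes only the proteins encoded by mitochondrial DNA, which are core subunits of the respiratory chain and ATP synthase. Its rRNAs come from the mitochondrial genome, whereas its proteins are made in the cytosol and imported. Some of those proteins descend from bacterial ribosomal proteins, and others were added during the evolution of mitochondria and sit mostly at the surface of the particle. Activated macrophages are known to shift from respiration towards glycolysis, and the NLRP3 inflammasome, which LPS followed by ATP triggers, is known to respond to mitochondrial signals.

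Promoters of such genes are known for short GC-rich sites. Windows from 250 bases before to 50 bases after the start were found in RefSeq for 69 of the 78 members, 75 windows in all. The 100 bases up to the start are shown for 6 of the 7 members that were called in the test described below, have 1 window and hold a match in those bases. They are read 5′ to 3′ on the gene's strand, with the match in capitals and coordinates in GRCm38.p6.
Mrpl30, chr1:37890377-37890476, + strand: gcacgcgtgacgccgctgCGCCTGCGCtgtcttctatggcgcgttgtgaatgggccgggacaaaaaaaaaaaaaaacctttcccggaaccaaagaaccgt
Mrpl34, chr8:71464826-71464925, + strand: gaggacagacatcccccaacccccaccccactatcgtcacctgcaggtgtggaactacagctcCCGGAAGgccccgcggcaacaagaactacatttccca
Mrpl36, chr13:73330909-73331008, + strand: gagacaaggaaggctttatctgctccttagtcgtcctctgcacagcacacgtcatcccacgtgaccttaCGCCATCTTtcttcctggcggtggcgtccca
Mrpl57, chr14:57826139-57826238, + strand: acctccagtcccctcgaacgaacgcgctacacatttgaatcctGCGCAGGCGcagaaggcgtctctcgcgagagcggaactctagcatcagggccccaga
Mrps26, chr2:130563657-130563756, + strand: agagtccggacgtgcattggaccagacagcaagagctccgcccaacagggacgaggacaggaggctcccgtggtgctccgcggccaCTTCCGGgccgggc
Mrps27, chr13:99344686-99344785, + strand: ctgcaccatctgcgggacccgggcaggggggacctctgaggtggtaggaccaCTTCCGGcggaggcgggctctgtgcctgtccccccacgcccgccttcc
Mrpl34, Mrps26 and Mrps27 hold the core of an ETS-family site, searched as CCGGAAG. Mrpl30 and Mrpl57 hold an NRF1 site, searched as GCGCANGCG. Mrpl36 holds a YY1 site, searched as AAGATGGCG, and also the letters of an E-box, CACGTG, left in lower case. Both strands were searched, and no matches of different motifs overlapped in the members' windows. The ETS letters were in 26 of the 75 windows (34.7%), against 17.6% of the 12279 windows of tested protein-coding genes and 8.86% of all 32851 windows. The NRF1 letters were in 16 windows (21.3%, against 13.2% and 6.25%), and the YY1 letters in 8 (10.7%, against 3.02% and 1.4%). The E-box was in 7 (9.33%), beside 9.85% and 7.15%. Of the 18 windows of members called higher, 8 held the ETS, 3 the NRF1 and 3 the YY1 letters; of the 55 windows of members that did not pass, 18, 12 and 5 did. Motif letters describe the sequence and show no binding, and a window without them says nothing about the factor.

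Most changes in this gene family were upward in KO and small. Of the 49 Mrpl genes, 11 rose (22.4%) and 1 fell (2.04%) at an adjusted p under 0.05. Of the 29 Mrps genes, 9 rose (31.0%) and 1 fell (3.45%). Over all 14436 genes tested, 14.1% were called higher in KO and 15.0% lower, 29.1% in either direction. The 22 called members, 20 higher and 2 lower, thus made up a share of the 78 close to that of all genes in sum, with a different split between the directions. The median log2 fold change, KO minus WT, was 0.08 for Mrpl and 0.12 for Mrps, beside 0.01 for all genes, and 57 of the 78 members (73.1%) had a positive value, beside 51.0% of all genes. Folds ran from a log2 value of -0.35 to 0.46. No member had an estimate of at least 2-fold, while 495 of all tested genes did, whether called or not. Among called genes the median size was 0.26 for members and 0.35 for all genes. The tests were edgeR's quasi-likelihood test with Benjamini-Hochberg adjustment over all genes tested. Without KO 1 and KO 3, which lay apart above, 9 Mrpl and 8 Mrps genes were called higher. Without KO 1 and KO 2 together, 5 Mrpl and 4 Mrps genes were called higher, and the Mrpl median was 0.03. These were the KO libraries with the highest sums over members (Mrpl 1309 and 1282 CPM, Mrps 635 and 614 CPM). Leaving them out thus lowers the KO level through the choice of libraries.

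**Figure D1:**
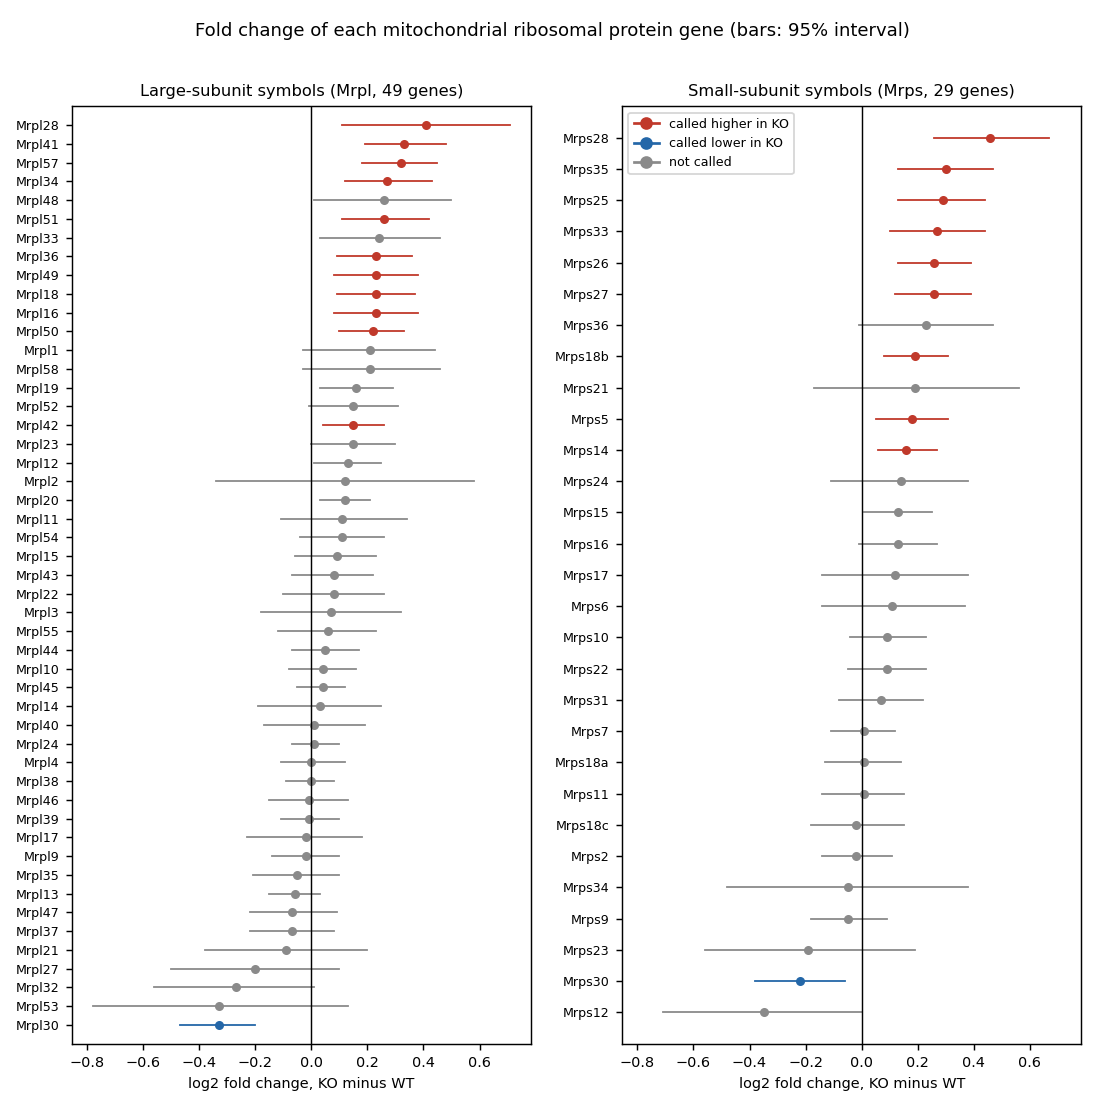
The log2 fold change (x axis, KO minus WT) of each of the 49 Mrpl genes (left) and 29 Mrps genes (right), ordered by size, with bars for the 95% interval; red marks genes called higher in KO, blue those called lower and grey those that did not pass. Red points number 11 and 9, blue points 1 and 1, and every estimate lies between -0.35 and 0.46.

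Complete separation of the libraries was a different description, made without a test. All 5 KO libraries lay above all 5 WT libraries for 13 of the 78 members (16.7%), beside 10.9% of all genes tested, and all below for 1 (1.28%), beside 12.4%. The 8 such Mrps genes were Mrps14, Mrps18b, Mrps25, Mrps26, Mrps27, Mrps28, Mrps33 and Mrps35. The 5 Mrpl genes were Mrpl18, Mrpl41, Mrpl42, Mrpl50 and Mrpl57, and the gene below was Mrpl30. These were singled out by their values. The map of every gene in every library shows both the common shift and the libraries that break it.

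**Figure D2:**
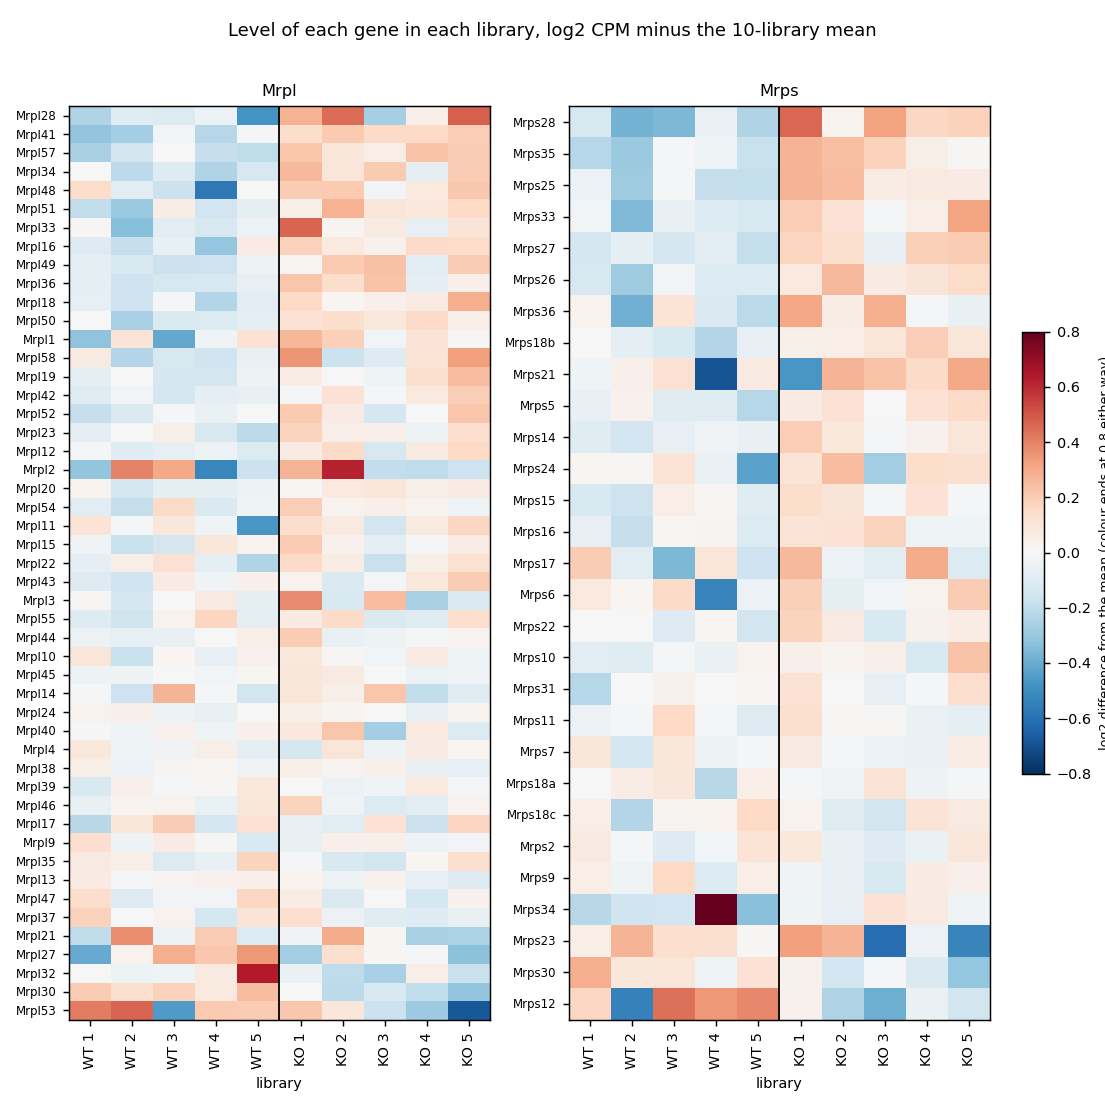
Each cell is the log2 CPM of a gene (one row each) in a library (columns, WT left and KO right of the line) minus the mean over the 10 libraries, in red above and blue below, with the colour ending at 0.8. Rows are ordered by fold change; single dark cells such as Mrps34 in WT 4 (28.0 CPM) stand beside paler rows in which the groups separate.

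The largest fold among the 78 was that of the small-subunit gene Mrps28. Its protein, the mitochondrial relative of bacterial S1, sits where the mRNA leaves the particle. Mrps28 (ENSMUSG00000040269; chromosome 3, 8867206 to 8988978 as the table lists it) stood at 11.1, 9.35, 9.48, 11.7 and 10.3 CPM in WT 1 to 5, and at 16.7, 12.4, 15.2, 13.6 and 13.8 CPM in KO 1 to 5. The groups did not overlap, and KO 1 was highest. The level rose 1.38-fold, from 10.4 ± 1.01 to 14.3 ± 1.63 CPM (mean ± SD, n = 5), a log2 fold change of 0.46 ± 0.09 (SE; edgeR adjusted p = 0.00247). Per kb of its listed length, Mrps28 had 13.3 CPM in WT and 18.3 in KO, high among the Mrps genes. It ranked 2 of 29 by the mean over all 10 libraries, a rank that includes its rise in KO. In WT alone, Mrps7 (17.8) and Mrps15 (13.7) were above it. The length is the one implied by the deposited FPKM, 783 bp, and was not checked against transcripts. In CPM not scaled by length, Mrps28 was among the lower Mrps genes in WT, at 10.4.

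The other called Mrps genes with bacterial relatives changed less. Mrps5, whose protein lies at the mRNA entrance, rose from 17.0 ± 1.11 to 19.2 ± 0.824 CPM (mean ± SD, n = 5; log2 0.18 ± 0.06, edgeR adjusted p = 0.0347). Its KO libraries ran from 18.0 to 20.1 CPM, and WT 2, at 18.5, lay inside that range. Mrps14, a protein of the head of the small subunit, had 26.7 to 29.1 CPM in WT and 29.5 to 34.1 in KO, a log2 difference of 0.16. Of the 16 small-subunit genes counted with a bacterial relative these 3 rose (18.8%, beside 14.1% of all genes) and none fell (beside 15.0%). The median was 0.12.

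Of the 10 small-subunit genes counted here as mitochondrion-specific, Mrps18b among them, 6 rose (60.0%, beside 14.1% of all genes) and none fell (beside 15.0%). The median was a log2 value of 0.23. Mrps35 stood at 9.27, 8.82, 10.7, 10.6 and 9.59 CPM in WT and at 13.1, 12.8, 12.3, 11.2 and 10.9 in KO, and rose by 0.30 ± 0.08 (SE, log2; edgeR adjusted p = 0.0133). Mrps25 went from 14.8 ± 1.14 to 18.1 ± 1.35 CPM (mean ± SD, n = 5; log2 0.29, edgeR adjusted p = 0.00913). Its lowest KO library, at 17.0 CPM, was above its highest WT library, at 16.2. Mrps33 had 14.4 to 18.1 CPM in WT and 18.2 to 22.9 in KO (log2 0.27, edgeR adjusted p = 0.0220), so that its groups nearly touched.

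Mrps26 and Mrps27 were called in every alternative fit. Mrps27, which belongs to the pentatricopeptide-repeat RNA-binding proteins, had 15.1, 15.8, 15.2, 15.7 and 14.6 CPM in WT and 18.8, 18.2, 16.0, 19.0 and 19.2 in KO. Only KO 3 came near WT. The rise was 0.26 ± 0.06 (SE, log2; edgeR adjusted p = 0.00688). Mrps26 stood at 16.2, 14.5, 17.4, 16.4 and 16.4 CPM in WT and 18.7, 21.2, 18.5, 19.0 and 19.6 in KO (log2 0.26, edgeR adjusted p = 0.00655). Both are among the promoters shown above with the ETS letters. Mrps18b, 1 of 3 members related to bacterial S18, sits at a site of its own and is counted with the mitochondrion-specific proteins. It rose from 25.7 ± 1.53 to 29.5 ± 1.21 CPM (mean ± SD, n = 5; log2 0.19, edgeR adjusted p = 0.0150). The other two did not pass: Mrps18a had a log2 value of 0.01 and Mrps18c one of -0.02.

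Among the large-subunit genes with bacterial relatives 5 of 30 rose (16.7%, beside 14.1% of all genes) and 1 fell (3.33%, beside 15.0%). The median was 0.07. Mrpl28 had the largest fold of these 30. It stood at 15.2, 16.8, 16.7, 17.4 and 12.9 CPM in WT and at 21.8, 24.5, 15.0, 18.5 and 25.1 in KO. KO 3 lay among the WT libraries, and the log2 fold change was 0.41 ± 0.14 (SE; edgeR adjusted p = 0.0432). That call was lost in 7 of the 10 fits that left out 1 library, and the adjusted p was 0.210 without KO 1 and KO 2. Mrpl34, the shortest member at 607 bp and the most abundant per length (28.9 CPM per kb in WT), rose from 17.5 ± 1.15 to 21.2 ± 1.89 CPM (mean ± SD, n = 5; log2 0.27, edgeR adjusted p = 0.0130), with KO 4 at 18.2 inside the WT range of 16.3 to 19.2.

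Mrpl16 and Mrpl18, whose proteins lie near the tRNA-binding face and the central protuberance, rose by the same amount. Mrpl18 had 28.3 to 33.2 CPM in WT and 33.7 to 40.8 in KO (log2 0.23 ± 0.06 SE, edgeR adjusted p = 0.0180). Mrpl16 had 18.4 to 23.8 and 23.3 to 25.9 CPM (log2 0.23, edgeR adjusted p = 0.0226), with WT 5 inside the KO range. Mrpl36, a small zinc-binding protein, rose as well (log2 0.23), from 19.1 to 20.4 CPM in WT to 20.3 to 25.1 in KO.

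Mrpl30 was the only Mrpl gene called lower. It encodes the relative of bacterial L30 (ENSMUSG00000026087; chromosome 1, 37929558 to 37937616). Its WT libraries stood at 42.2, 40.1, 41.6, 38.7 and 43.6 CPM and its KO libraries at 36.8, 31.7, 33.7, 32.0 and 29.4. All KO libraries were below all WT libraries. Mrpl30 fell 1.26-fold, from 41.2 ± 1.89 to 32.7 ± 2.75 CPM (mean ± SD, n = 5; log2 -0.33 ± 0.06 SE, edgeR adjusted p = 0.00144). The call held in each of the 20 alternative fits, with adjusted p-values up to 0.0259.

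The next gene to Mrpl30 moved with it. Mitd1, which encodes a protein of the last step of cell division, starts on the opposite strand within 1000 bases of the Mrpl30 start. It had 17.4, 19.7, 15.1, 20.0 and 18.3 CPM in WT and 11.4, 14.1, 11.1, 9.46 and 9.46 in KO. Mitd1 fell 1.63-fold (log2 -0.70 ± 0.12 SE, edgeR adjusted p = 0.000742), and its groups did not overlap. Such head-to-head neighbours were found among the tested genes for 25 of the 78 members, 10 of them called. Mrpl30 and Mitd1 were the only such pair in which both genes were called in the same direction, and no pair had opposite calls.

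Of the 25 neighbours, 2 were called higher and 2 lower, beside 14.1% and 15.0% of all genes tested. Mrpl57 rose while Ska3, a kinetochore gene, had 1.54 ± 0.477 and 1.18 ± 0.168 CPM (mean ± SD, n = 5; log2 -0.37, edgeR adjusted p = 0.260). Klc4, a kinesin light chain next to Mrpl2, rose from 52.7 ± 2.20 to 81.5 ± 2.51 CPM (mean ± SD, n = 5; log2 0.63), beside 0.12 for Mrpl2, which did not pass. Ndufs6, a respiratory complex I subunit gene next to Mrpl36, had a log2 value of 0.19 (edgeR adjusted p = 0.130). Mrpl46 and Mrps11, both members, start head to head and had -0.01 and 0.01. Each is the neighbour of the other, so this pair is counted from both sides among the 25. The sources used here do not give the strand setting of the counting, and 27 members, 4 of them called, overlap another tested gene, with which they may share reads. Those 4 are Mrpl18, Mrpl36, Mrpl49 and Mrps25.

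**Figure D3:**
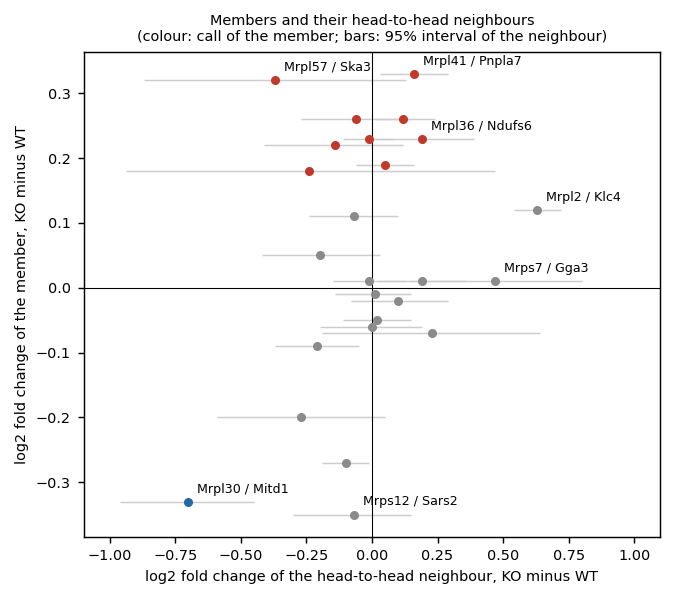
Each point is 1 of 25 members with a tested head-to-head neighbour, with the log2 fold change of the neighbour on the x axis (bar, 95% interval) and that of the member on the y axis, coloured by the call of the member (red higher, blue lower, grey not passed). Mrpl30 with Mitd1 lies furthest to the left, at -0.70 on the x axis and -0.33 on the y axis.

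In the large subunit 6 of the 19 genes without a bacterial relative rose (31.6%, beside 14.1% of all genes) and none fell (beside 15.0%). The median was 0.11. Mrpl41, whose protein is also known to bind the apoptosis regulator BCL2, stood at 17.7, 18.2, 21.7, 18.8 and 21.8 CPM in WT. Its KO libraries were at 24.2, 25.4, 24.4, 24.4 and 25.2, tightly grouped and all higher. The rise was 0.33 ± 0.07 (SE, log2; edgeR adjusted p = 0.00252). Mrpl57 stood at 15.0, 16.2, 18.0, 15.8 and 15.6 CPM in WT and at 20.9, 19.1, 18.6, 21.0 and 20.7 in KO. It rose 1.24-fold without overlap (log2 0.32 ± 0.06 SE, edgeR adjusted p = 0.00250). Mrpl51 rose from 30.2 ± 2.84 to 36.2 ± 2.33 CPM (mean ± SD, n = 5; log2 0.26, edgeR adjusted p = 0.0136), with KO 1 at 34.1 just under WT 3 at 34.4. The remaining rises in this group were Mrpl49 (0.23), Mrpl50 (0.22) and Mrpl42 (0.15).

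Symbol and particle do not always match. Mrps30 and Mrps18a carry small-subunit symbols, but their proteins sit in the large subunit. Mrps30 was the called Mrps gene that fell, with 33.4, 29.1, 29.3, 26.7 and 29.6 CPM in WT and 28.0, 24.6, 27.1, 25.3 and 22.1 in KO. WT 4 lay among the KO libraries. Its log2 fold change was -0.22 ± 0.07 (SE; edgeR adjusted p = 0.0444), and the call was lost in 7 of the 10 fits without 1 library and with scaling by library totals, where the log2 value was -0.10 (edgeR adjusted p = 0.352). Counted by particle, 9 of 26 small-subunit genes rose (34.6%) and none fell. Of 51 large-subunit genes 11 rose (21.6%) and 2 fell (3.92%). Over all genes tested 14.1% were higher and 15.0% lower. Mrps36, now known as a component of the alpha-ketoglutarate dehydrogenase complex, had 6.48 ± 0.861 and 7.61 ± 0.908 CPM (mean ± SD, n = 5). Its interval of the log2 difference was -0.01 to 0.47 (edgeR adjusted p = 0.151).

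Several members with well-known roles did not pass. Mrpl12, which also binds the mitochondrial RNA polymerase, stood at 49.6, 46.8, 47.7, 48.6 and 46.4 CPM in WT and at 52.4, 55.5, 45.8, 52.6 and 55.8 in KO. Only KO 3 lay below the WT range, and the log2 difference was 0.13 (interval 0.01 to 0.25, edgeR adjusted p = 0.0944). Mrpl10, which anchors the stalk that Mrpl12 forms, had 0.04 (interval -0.08 to 0.16), and Mrpl11 at the base of that stalk 0.11 (-0.11 to 0.34). For Mrpl44, an RNase III-like protein, the interval was -0.07 to 0.17, and for Mrpl3, close to the peptidyl transferase centre, -0.18 to 0.32. Mrpl58, a peptidyl-tRNA hydrolase that rescues stalled ribosomes, had 9.53 ± 0.771 and 11.1 ± 1.83 CPM (mean ± SD, n = 5; interval -0.03 to 0.46). Mrps16 had 0.13 (interval -0.01 to 0.27).

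Mrps12, the protein of the decoding centre, had the most negative estimate of all members without passing. It stood at 12.8, 7.86, 15.5, 14.5 and 14.9 CPM in WT and at 11.7, 9.65, 8.72, 11.0 and 10.3 in KO. WT 2 was lower than every other library. With it the log2 value was -0.35 ± 0.16 (SE; edgeR adjusted p = 0.129), and without it -0.48 (edgeR adjusted p = 0.00314). Its head-to-head neighbour Sars2, the mitochondrial seryl-tRNA synthetase, had 7.23 ± 1.03 and 6.87 ± 0.542 CPM (mean ± SD, n = 5; edgeR adjusted p = 0.644). Mrps34 likewise turned on 1 library, at 13.6, 14.2, 14.3, 28.0 and 12.6 CPM in WT and 15.5, 15.2, 17.2, 16.7 and 15.5 in KO. Its log2 value was -0.05 with WT 4 and 0.24 without it (edgeR adjusted p = 0.889 and 0.0216).

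In all, 56 members did not pass, 6 of them with an unadjusted p under 0.05 (Mrpl12, Mrpl19, Mrpl20, Mrpl33, Mrpl48 and Mrps15). A missed threshold does not show that a level was equal, but the precision was fair: the median SE over members was 0.07, and for 48 of the 56 the 95% interval lay within 0.5 on the log2 scale either way. Mrpl53, the member with the lowest CPM, at 2.14 ± 0.472 and 1.70 ± 0.394 (mean ± SD, n = 5), had an interval of -0.78 to 0.13. Mrpl2 spread widely in both groups, from 17.5 to 33.1 CPM in WT and from 21.8 to 38.5 in KO. Of the 22 calls, 9 were made in every alternative fit, for Mrpl18, Mrpl30, Mrpl41, Mrpl50, Mrpl51, Mrpl57, Mrps26, Mrps27 and Mrps28.

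Summed over all genes of a subunit symbol, the levels in KO were slightly above those in WT with TMM scaling. The 49 Mrpl genes summed to 1193, 1175, 1223, 1172 and 1218 CPM in WT and to 1309, 1282, 1221, 1219 and 1269 in KO. KO 3 and KO 4 lay at the top of the WT range, just under WT 3, and the other KO libraries above it. The means were 1196 ± 23.6 and 1260 ± 39.0 CPM (SD, n = 5), a ratio of 1.05. The 29 Mrps genes summed to 590, 558, 597, 575 and 572 CPM in WT and 635, 614, 584, 610 and 611 in KO, with KO 3 inside the WT range and a ratio of 1.06. The Mrpl sum was 2.07 ± 0.0461 times the Mrps sum in WT and 2.06 ± 0.0377 times in KO (SD, n = 5). Scaled by library totals, the sums separated: Mrpl ran from 1133 to 1167 in WT and from 1252 to 1397 in KO, and Mrps from 541 to 571 and from 622 to 678, both with a ratio of 1.14. No test was made on these sums.

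**Figure D4:**
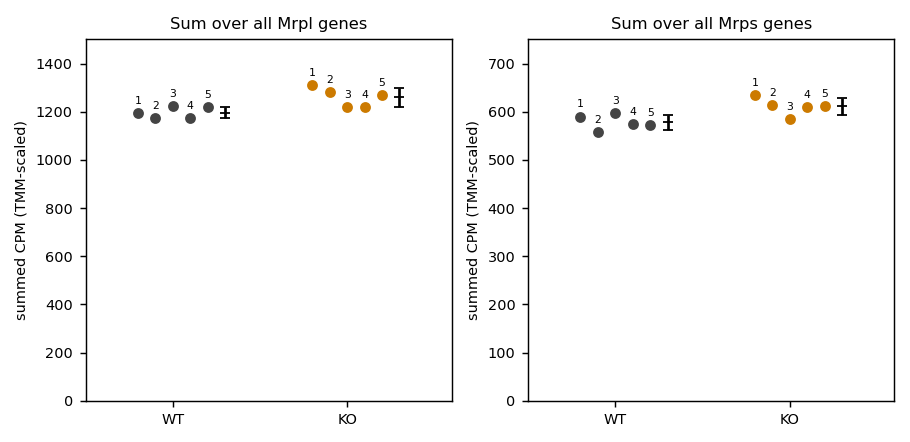
Summed CPM (y axis, from 0, TMM-scaled) of all Mrpl genes (left) and all Mrps genes (right) in each library, numbered by replicate, with the mean and SD of each group beside the points (n = 5). KO means are 1260 and 611 beside 1196 and 578 in WT, and the points of the groups overlap.

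These values depend on how the libraries are scaled. TMM scaling, used throughout, is meant to offset differences in composition, and its factors were 0.9479 to 0.9685 in WT and 1.019 to 1.068 in KO. Whether composition or a general shift set these factors apart was not tested. Scaled by library totals alone, the median over all genes was a log2 fold change of 0.12 in place of 0.01, and the Mrpl and Mrps medians were 0.20 and 0.24. Relative to the median of all genes, Mrpl stood at 0.08 and Mrps at 0.12 with TMM, with DESeq2 size factors and with library totals. The counts with library totals were 26 Mrpl and 15 Mrps genes higher, but of all genes 4221 were then called higher and 1363 lower, beside 2036 and 2164 with TMM.

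Levels per length spanned a wide range among members. The lengths, 607 to 13836 bp, are those implied by the deposited FPKM. They were not checked against transcripts, so the order holds per listed length only. In CPM per kb, Mrpl34 was highest of the Mrpl genes in WT, followed by Mrpl12 at 25.7 CPM per kb, and Mrpl58 lowest at 1.17. Among Mrps genes Mrps7 was highest at 17.8 CPM per kb, and Mrps35 lowest at 1.02. Mrps7 itself had 42.2 ± 2.83 and 42.4 ± 1.75 CPM (mean ± SD, n = 5; log2 interval -0.11 to 0.12). Members were short, 3381 bp at the median beside 5784 bp for all tested genes. Across all genes Spearman's rho of the log2 fold change was -0.11 with length and -0.15 with level. Across the 78 members it was -0.04 and -0.21. These correlations are across genes of the same libraries, which are not independent, and describe only.

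Both rRNAs of the mitochondrial ribosome were measured too. mt-Rnr1, the small-subunit rRNA, stood at 220, 225, 211, 239 and 282 CPM in WT and at 384, 325, 339, 332 and 306 in KO. It rose 1.43-fold without overlap (log2 0.52 ± 0.08 SE, edgeR adjusted p = 0.000525). mt-Rnr2, the large-subunit rRNA, had 622 ± 103 and 687 ± 66.5 CPM (mean ± SD, n = 5; interval of the log2 difference -0.08 to 0.37, edgeR adjusted p = 0.345). The sources used here do not say how rRNA was removed, so rRNA counts reflect what that step left. Of the 13 mRNAs encoded by mitochondrial DNA, which this ribosome translates, 3 rose and none fell: mt-Nd3 (log2 0.53), mt-Cytb (0.30) and mt-Nd1 (0.23). Without WT 5, 6 of them were called higher, without any other single library 2 to 4, and with library totals 9. Without WT 3, 1 was called lower. Among the 13, mt-Nd4l stood at 0.0504 CPM in WT 3, beside 141 to 155 CPM in the other WT libraries. Its interval of the log2 difference was -1.24 to 1.90, so its change was hardly measured. The cause of that low value was not tested.

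Of 6 further genes of the particle under other symbols, 2 rose (33.3%) and none fell. Beside this and the shares of the lists below stand 14.1% higher and 15.0% lower over all genes tested. Dap3, a GTP-binding small-subunit protein also linked to cell death, rose from 27.9 ± 1.40 to 31.4 ± 0.834 CPM (mean ± SD, n = 5; log2 0.17, edgeR adjusted p = 0.0161). Chchd1 rose by 0.18 (edgeR adjusted p = 0.0377). Ptcd3 (0.11), Aurkaip1 (-0.00) and Gadd45gip1 (0.13) did not pass, nor did Oxa1l (0.05), the insertase that docks at the exit tunnel and is no subunit. Leaving out single libraries gave 1 or 2 of the 6 called higher (1 without WT 1, WT 2, WT 5, KO 1, KO 2, KO 3 or KO 5), and library totals gave 5.

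The median over 25 genes that build the ribosome was 0.15. Of these, none fell, beside 15.0% of all genes tested, and 4 rose (16.0%, near the 14.1% of all genes). They were Mrm3, a methyltransferase of the large rRNA (0.36, edgeR adjusted p = 0.00652), the GTPases Mtg1 (0.20) and Noa1 (0.18), and Rbfa, which acts on the small rRNA (0.17, edgeR adjusted p = 0.0497). The count was 7 without WT 1, 2 without KO 1 or without KO 4, and 16 with library totals, and 1 gene was called lower without WT 5. None of the 13 initiation, elongation and release factors passed with edgeR or with the DESeq2 Wald test, 4 of them had an unadjusted p under 0.05, and the median was 0.16. That count became 1 without WT 1, 2 without WT 2 or without KO 3, 2 with the filter of 50 counts and 7 with library totals. The closest, the elongation factor Tsfm, had 13.9 ± 0.879 and 15.6 ± 0.690 CPM (mean ± SD, n = 5; edgeR adjusted p = 0.0530).

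Of 22 genes for mitochondrial tRNA charging, 2 rose (9.09%), Nars2 (log2 0.37) and the amidotransferase subunit Gatc (0.26), and 1 fell (4.55%). That was Kars, which serves the cytosol as well, from 109 ± 5.28 to 86.3 ± 0.992 CPM (mean ± SD, n = 5; log2 -0.34, edgeR adjusted p = 5.37e-05). The number that rose was 4 without WT 1 or without WT 3, 1 without WT 4 or without KO 2, 0 with the replicate block and 10 with library totals, and 2 were lower without KO 4.

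Of 14 genes that copy mitochondrial DNA or make and handle its RNA, 4 rose (28.6%) and 2 fell (14.3%). Lrpprc, which stabilises mitochondrial mRNA, rose from 72.3 ± 1.13 to 85.7 ± 3.51 CPM, and the helicase Twnk rose by 0.33. Pnpt1, a mitochondrial exoribonuclease, fell from 63.1 ± 3.56 to 41.7 ± 2.61 CPM (mean ± SD, n = 5; log2 -0.60, edgeR adjusted p = 8.32e-06), and the DNA-packaging factor Tfam fell by 0.18 on the log2 scale. Of these counts, the 4 became 2 without WT 1, WT 3 or KO 2 and with the replicate block, and the 2 became 1 without WT 4 or KO 2 and with library totals.

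Of 13 tested regulators of mitochondrial gene expression 1 rose (7.69%) and 2 fell (15.4%). Ppargc1b, a coactivator, rose from 11.7 ± 1.30 to 16.0 ± 1.30 CPM (mean ± SD, n = 5; log2 0.45, edgeR adjusted p = 0.00201). Nrf1, whose protein binds the GCGCANGCG letters above, fell from a range of 15.0 to 17.9 CPM in WT to 14.1 to 15.1 in KO (log2 -0.20, edgeR adjusted p = 0.0256), and Max fell by 0.36. With library totals 4 regulators were higher and none lower by edgeR, and without WT 3, WT 4, WT 5, KO 1, KO 3 or KO 5 only 1 was lower; 2 were higher without WT 1 or KO 3. Among 22 import and chaperone genes 8 rose (36.4%), such as Timm8b (0.34) and Hspe1 (0.26). In the same list 2 fell (9.09%), the processing peptidase subunits Pmpca and Pmpcb (both -0.17). Without WT 4, KO 1, KO 3 or KO 5 the 8 became 5, with the replicate block 4 and with library totals 13, when none was lower. Proliferation genes, 16 in all, had 1 higher, Mcm2, and 4 lower, among them Ccna2 and Pcna; 7 were lower without KO 1 and KO 3, and 2 without any single library other than WT 5, KO 1 or KO 3.

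The ribosome of the cytosol served as the nearest comparison. Of 77 tested cytosolic ribosomal protein genes 4 were called higher (5.19%) and 2 lower (2.60%), with a median of 0.03, beside 0.10 for all 78 mitochondrial members. Rpl36al rose from 50.3 ± 4.67 to 59.3 ± 2.19 CPM (mean ± SD, n = 5; log2 0.24, edgeR adjusted p = 0.0124). Other called genes were Rpl3, Rpl38 and Rps27l, all higher, and Rps3, with a log2 value of -0.10 with TMM but 0.02 when scaled by library totals. Library totals gave 24 higher and 1 lower, and leaving out single libraries 3 to 6 higher and 1 or 2 lower. No test of the difference between the families was made.

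**Figure D5:**
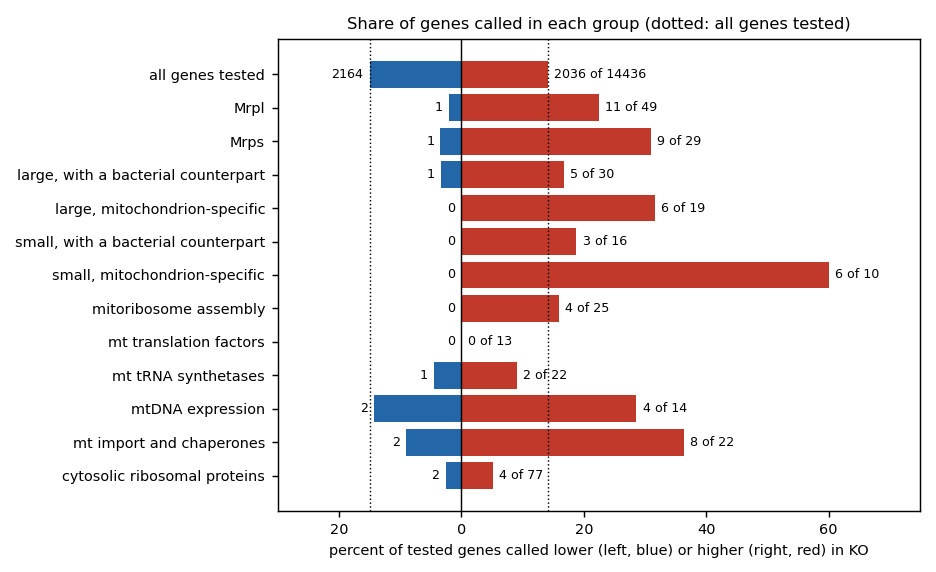
Percent of the tested genes of each group called higher (red, right) or lower (blue, left) in KO, with the number called beside each bar and dotted lines at the shares of all genes tested, 14.1% and 15.0%. The bar for small-subunit genes counted as mitochondrion-specific, 6 of 10, is the longest, and cytosolic ribosomal proteins have 4 and 2 of 77.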

How the data were processed

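RNA-seq was measured in 10 libraries of LPS- and ATP-treated mouse macrophages, 5 WT and 5 KO, per the labels. Per the file headers, the authors deposited 1 table with raw counts for every gene in every library. FPKM stand beside the counts in that deposited table and served only to recover gene length: over 8318 genes with at least 200 counts in the WT columns, count divided by FPKM and library total gave 1 length per gene, with a largest relative spread of 4.5e-06. The 5 FPKM columns of the SI libraries were not used. The submitters' processing notes name CASAVA 1.8, TopHat2 2.0.6 and the builds mm10 and GRCm39 without a role; no source used here gives the gene counter, annotation or strand setting. Coordinates of genes are those of the table. Of 52073 identifiers shared with a GRCm38 annotation 1467 had the same start and end, so only strands were taken from it, by identifier. Neighbours were found from the table's coordinates and those strands, overlaps from the coordinates alone, and no exon positions were looked up. Promoter sequences are from RefSeq, GRCm38.p6.

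Counts were tested with edgeR 4.0.16 in R 4.3.3 (quasi-likelihood, TMM, KO minus WT; genes kept by filterByExpr at minimum count 10), with adjusted p by Benjamini-Hochberg over the 14436 genes kept. Calls were made below an adjusted p of 0.05. The SE is the log2 fold change divided by the square root of F; intervals are 95%. CPM are scaled by TMM factors. A head-to-head neighbour starts on the other strand up to 1000 bases upstream or 500 bases inside. The procedure was tested on simulated data. Library totals of 19319512 to 22766319 counts set the precision. Alternatives were DESeq2 size factors, library totals, other low-count filters, a replicate block, robust edgeR, the DESeq2 1.42.0 Wald test, limma-voom (limma 3.58.1) and fits without libraries. Members, lists, markers and alternatives were chosen with earlier results of these data known, and no list was tested as a set. Named members were, per symbol, the 8 called with the largest fold in each direction, the 3 highest and 3 lowest per length, and 11 with known roles; in other lists, up to 3 called genes per direction. Others were named after their values were seen. A gene of the cytosolic list that the rule names is not reported here. Reads of the 6 named pseudogenes of members (Mrpl23-ps1 at 12.8 CPM in WT, for instance) could have been split with their parents. The lists were 13 translation factors, 25 assembly genes, 22 genes of tRNA charging, 14 of mitochondrial DNA expression, 14 regulators (13 tested), 6 further genes of the particle under other symbols (Oxa1l, no subunit, among them), 22 import genes, 16 proliferation genes and 80 cytosolic ribosomal protein genes (77 tested).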

Additional observations from a re-analysis of the deposited data

Results flagged for a closer look

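Single libraries stood apart for 7 of the 78 members. The criterion was a gap between 1 library and the other 4 of its group larger than Dixon's 95% critical value for 5 values, which chance exceeds in about 1 of 20 groups. It was met in 8 of 156 groups, close to that rate.

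Mrps34 in WT 4 had 28.0 CPM beside 12.6 to 14.3 in the other WT libraries, and its call turns on that library. Mrpl32 in WT 5 had 23.2 CPM beside 14.5 to 15.7. Mrps21 was low in WT 4 (12.9 CPM beside 20.3 to 22.7) and in KO 1 (15.1 CPM beside 23.2 to 25.7). Mrps31 in WT 1 had 11.4 CPM beside 13.4 to 13.7. In KO 1, Mrpl33 had 28.8 CPM beside 19.9 to 22.4 and Mrpl37 had 33.7 CPM beside 28.5 to 29.7. Mrps18a in KO 3 had 44.7 CPM beside 40.4 to 41.2. KO 1 held 3 of the 8, and none of the 7 members passed with all 10 libraries.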

How the results depend on the processing

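Of the 22 member calls, 9 were made in each of the 20 alternatives and 15 in each fit without 1 library, and 24 members not called gained a call in at least 1 alternative. Scaled by library totals, 26 Mrpl (median 0.20) and 15 Mrps genes (median 0.24) were higher, 0 Mrps genes lower by edgeR, 4221 and 1363 of all genes higher and lower, and 63 and 3 genes of the 8 other lists (131 tested, 22 and 11 with TMM; median 0.20 against 0.09); Rps3 turned to 0.02 (edgeR adjusted p = 0.666). Without KO 1 and KO 2, the KO libraries with the highest member sums, 5 Mrpl (median 0.03) and 4 Mrps genes were higher. In that fit 12 list genes were higher and 7 lower. The call of Mrps30 as lower (0 Mrps genes lower) was lost without a filter and with at least 50 counts in 5 libraries; without a filter 7 list genes were lower and their median was 0.11.

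Leaving out 1 library gave 8 to 13 Mrpl genes higher with medians of 0.06 to 0.12 (highest without WT 3), 6 to 10 Mrps genes higher with medians of 0.10 to 0.16, 0 to 1 Mrps genes lower, and 7 to 11 list genes lower (7 without WT 4). Mrps34, at -0.05 with all libraries, ranged from -0.12 (without WT 5) to 0.24 (without WT 4, edgeR adjusted p = 0.0216). With the replicate number as a block, 10 Mrpl genes were higher and 1 lower, 6 Mrps genes higher and 1 lower, and 12 list genes higher. Same-numbered libraries correlated at -0.114 to 0.184, so the numbers were not taken as pairs. Causes of these moves were not tested beyond what each alternative changes.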
